A study of Mus musculus with 4 samples.

Results

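The 4 Ebf genes of the mouse (Ebf1, Ebf2, Ebf3 and Ebf4), all members of the early B-cell factor family, were examined for open chromatin in endothelial and non-endothelial nuclei of the adult heart. They were found by name in GENCODE M21 (mm10) and are 4 of 21755 protein-coding genes. ATAC-Seq, in which the transposase Tn5 cuts and tags accessible DNA, had been carried out on sorted nuclei of C57BL/6 Cdh5-Cre/NuTRAP mice in 4 libraries, 2 from GFP+ nuclei and 2 from GFP- nuclei. All animals were males aged 8 to 12 weeks, and each reaction held between 100 and 50000 nuclei from whole hearts. Cdh5-Cre turns on the GFP tag in cells that express, or descend from cells that expressed, the vascular endothelial cadherin promoter, so that GFP+ nuclei are of endothelial lineage and GFP- nuclei are the remainder of the heart (cardiomyocytes, fibroblasts, mural cells and others). GFP+ and GFP- nuclei thus carried the same transgenes and differed in the sort.

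One peak list per population had been called on both libraries together, with 78912 peaks for GFP- and 65008 for GFP+. There was therefore no value per library, no spread between replicates and no test, and every difference below is a difference between a pair of lists with no replicate check. Read depth per library was not given in the files. The unit of comparison was the rank of a peak by its area (the signal summed over the peak by the caller) within its own list, from 0 for the lowest to 100 for the highest peak. A peak was called shared when it overlapped a peak of the other list by at least 1 bp. By the rank of their start peaks, endothelial markers separated the lists, and cardiomyocyte markers did not by more than 20 points. Start peaks (within 250 bp of an annotated transcript start) ranked higher in GFP+ by more than 20 points at 6 of 7 endothelial marker genes, against 1.94% of the 13643 protein-coding genes with a start peak, and at 0 of 5 cardiomyocyte markers, of which 0 ranked lower in GFP+ by that much either. The 5 cardiomyocyte starts ranked 90.2 or more in the GFP- list, so none could rank higher by that much. Near the top of a list, a large change in area moves the rank little. At Actc1 the areas were 18266 in GFP- and 3518 in GFP+, at ranks of 99.9 and 88.5. At Tnni3 they were 15907 and 14737, at ranks of 99.8 in both. In bulk nuclei, fewer nuclei with an open site and less opening per nucleus cannot be told apart.

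EBF proteins are transcription factors that bind DNA as dimers through a zinc-containing domain, and their preferred site is a palindrome, TCCC and GGGA separated by 2 bases of any kind. Ebf1 is needed for the commitment of B lymphocytes and is also used by mesenchymal, adipose and mural cells, Ebf2 marks brown adipose precursors, and Ebf3 acts in neurons and in marrow stroma. Ebf4 is the least studied member. Outside the blood and nervous systems the family is best known from stromal, adipose and mural cells.

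In mm10, Ebf1 (ENSMUSG00000057098.14) lies on the plus strand at chr11:44617317-45008091 and spans 391 kb. Ebf2 (ENSMUSG00000022053.13) lies on the plus strand at chr14:67233292-67430918 (198 kb), Ebf3 (ENSMUSG00000010476.14) on the minus strand at chr7:137193673-137314445 (121 kb), and Ebf4 (ENSMUSG00000053552.14) on the plus strand at chr2:130295169-130370481 (75.3 kb). Peaks were given to a gene if their summit lay in it, or within 100 kb of it with no other protein-coding gene nearer.

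The windows below are those that the results turn on. Each holds 200 bases around a summit, read 5′ to 3′ from the plus strand of GRCm38, and capitals mark the word named. The first is the start peak of Ebf1 in GFP- nuclei, with a GATA word (TGATAA). The second is the Ebf1 intron peak that ranked furthest above its GFP- counterpart, taken at its GFP+ summit, with a SOX word (CCATTGT, here on the minus strand, read as ACAATGG) and an AP-1 word (TGACTCA). The third is the largest peak of Ebf2, upstream of the gene and present in both lists, with an AP-1 word. The fourth is the largest peak of any Ebf gene that had no GFP+ counterpart, in an intron of Ebf2, with an EBF word. The fifth is a large intron peak of Ebf3 shared by both lists, with a TEAD word (GGAATG) and an E-box (CAGCTG).
Ebf1 start, chr11:44617084-44617283: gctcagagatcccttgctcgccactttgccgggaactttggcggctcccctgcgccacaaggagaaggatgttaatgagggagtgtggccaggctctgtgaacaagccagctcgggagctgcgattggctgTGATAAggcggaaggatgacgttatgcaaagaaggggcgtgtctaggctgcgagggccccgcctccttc
Ebf1 intron, chr11:44975211-44975410: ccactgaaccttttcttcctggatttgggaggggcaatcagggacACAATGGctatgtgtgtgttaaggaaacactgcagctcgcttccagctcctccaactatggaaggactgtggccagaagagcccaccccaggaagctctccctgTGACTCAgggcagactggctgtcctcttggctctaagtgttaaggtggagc
Ebf2 upstream, chr14:67188737-67188936: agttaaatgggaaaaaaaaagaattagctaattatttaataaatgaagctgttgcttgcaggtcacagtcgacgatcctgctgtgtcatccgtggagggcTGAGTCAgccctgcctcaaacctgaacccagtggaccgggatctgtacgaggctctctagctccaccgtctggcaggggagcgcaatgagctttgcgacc
Ebf2 intron, chr14:67357640-67357839: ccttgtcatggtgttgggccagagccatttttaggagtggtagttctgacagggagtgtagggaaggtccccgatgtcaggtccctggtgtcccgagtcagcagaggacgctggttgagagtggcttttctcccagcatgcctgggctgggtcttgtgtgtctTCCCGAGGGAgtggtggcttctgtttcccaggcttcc
Ebf3 intron, chr7:137278197-137278396: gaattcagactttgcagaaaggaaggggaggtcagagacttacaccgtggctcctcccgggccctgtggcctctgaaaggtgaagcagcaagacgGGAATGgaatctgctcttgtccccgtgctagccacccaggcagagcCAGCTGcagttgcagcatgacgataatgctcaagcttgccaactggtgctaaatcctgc

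Open chromatin at the 4 genes was first counted in each population. Ebf1 had 31 peaks in GFP- nuclei and 14 in GFP+ nuclei. Ebf2 had 26 and 5, Ebf3 had 11 and 9, and Ebf4 had 3 and 2, which gave 71 GFP- and 30 GFP+ peaks in all. The ratio of GFP- to GFP+ peaks was 5.20 at Ebf2, 2.21 at Ebf1, 1.50 at Ebf4 and 1.22 at Ebf3, where the lists as a whole stood at 1.21. By length, peaks covered 5.24% of the Ebf2 gene record in GFP- nuclei and 0.601% in GFP+ nuclei. At Ebf1 they covered 2.84% and 1.39%, at Ebf3 5.34% and 4.11%, and at Ebf4 2.19% and 1.31%, beside medians over all protein-coding genes of 2.41% and 1.94%. Ebf2 and Ebf1 thus carried most of the difference in number, and Ebf3 had almost as many peaks in the endothelial list as in the other.

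The excess consisted of GFP- peaks with no counterpart in GFP+ nuclei. At Ebf2, 21 of 26 GFP- peaks (80.8%, Wilson 95% interval 62.1 to 91.5) overlapped no GFP+ peak, and at Ebf1 20 of 31 did (64.5%, 46.9 to 78.9). At Ebf3 the number was 4 of 11 (36.4%, 15.2 to 64.6) and at Ebf4 1 of 3. Together, 46 of 71 GFP- peaks at the family (64.8%, 53.2 to 74.9) lacked a GFP+ peak, against 30.3% of all 78912 GFP- peaks. These intervals cover counting error only, and neighbouring peaks of a gene are not independent. Among the 1943 genes with at least 10 GFP- peaks, the median share was 30.8%. Ebf2 stood at the 98.3 percentile of these genes, Ebf1 at 92.9 and Ebf3 at 58.5, and 32 genes had a share as high as that of Ebf2 or higher. In the other direction, 4 of 30 GFP+ peaks at the family (13.3%, 5.31 to 29.7) lacked a GFP- peak, against 13.4% of all GFP+ peaks. This number was 8 of 30 (26.7%) with the GFP- list cut by area to the length of the GFP+ list, against 20.8% of all GFP+ peaks, and 10 of 30 (33.3%) when an overlap of 50% of both peaks was asked, against 26.3%. With the full lists and an overlap of 1 bp, the 4 peaks were 3 at Ebf1 and 1 at Ebf3. Every GFP+ peak at Ebf2 and Ebf4 then overlapped a GFP- peak.

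**Figure D1:**
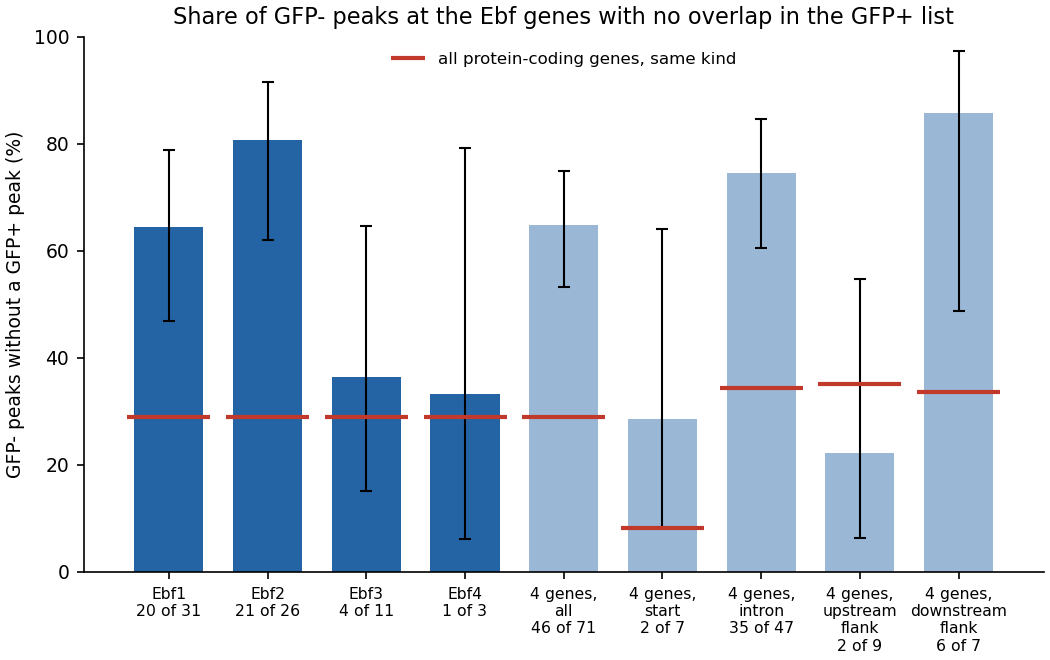
Share of GFP- peaks that overlap no GFP+ peak (y axis, percent) at each Ebf gene (dark bars) and at the 4 genes together by position (light bars), with Wilson 95% intervals, and the share over all protein-coding genes for the same kind of peak (red lines). The intervals of Ebf1, Ebf2, all 4 genes together, introns and downstream flanks lie above their red lines, those of Ebf3, Ebf4 and upstream flanks include theirs, and that of starts begins at its line.

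The difference was located mainly in introns. Of the 47 GFP- peaks with a summit in an intron of an Ebf gene, 35 (74.5%, 60.5 to 84.7) had no GFP+ counterpart, against 34.4% of all intron peaks of protein-coding genes. These were 17 of 24 at Ebf1, 14 of 16 at Ebf2, 3 of 6 at Ebf3 and 1 of 1 at Ebf4. In the flanks downstream of the genes, 6 of 7 GFP- peaks had none, against 33.6%, and in the upstream flanks 2 of 9, against 35.2%. At the annotated starts 2 of 7 peaks had none, against 8.19%, and both were the smaller of a pair of start peaks of their gene. The single remaining peak, in an exon of Ebf2, was also without a GFP+ counterpart.

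**Figure D2:**
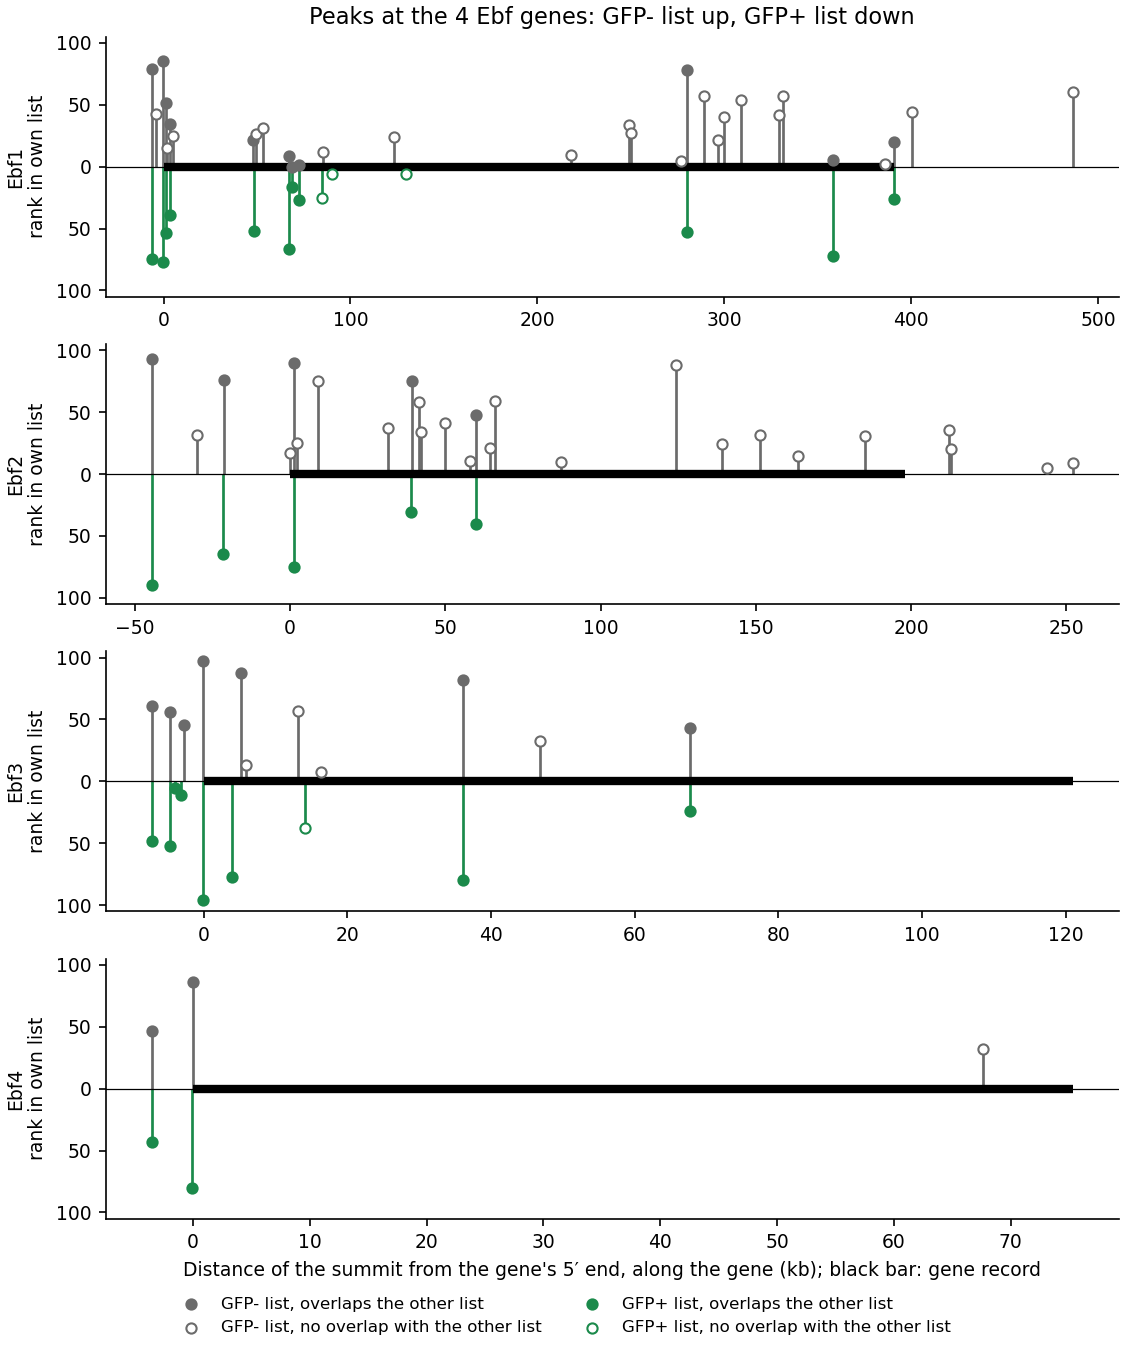
Every peak at the 4 Ebf genes, placed by how far its summit lies from the 5′ end of the gene (x axis, kb) and by its rank in its own list (y axis, GFP- upward in grey, GFP+ downward in green). Open circles are peaks with no overlap in the other list, and the black bar is the gene. The GFP- peaks without a counterpart fill the introns of Ebf2 and the part of Ebf1 beyond 200 kb, whereas the first 100 kb of Ebf1 hold 8 of its 14 GFP+ peaks.

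At their promoters, all 4 Ebf genes were open in both populations, and all 4 start peaks ranked somewhat lower in GFP+ nuclei. A start peak in both lists was also found at 12802 of the 13643 protein-coding genes with a start peak in either list. The start peak of Ebf3 ranked 97.2 in the GFP- list and 95.6 in the GFP+ list and was of almost the same length in both (2573 and 2546 bp). The start peak of Ebf1 ranked 85.7 and 77.3 (1296 and 1019 bp), and that of Ebf4 86.1 and 80.2 (1952 and 1480 bp). The start peak of Ebf2 ranked 89.8 and 75.0 and was 1638 bp long in GFP- nuclei and 463 bp in GFP+ nuclei. None of the 4 differences exceeded 20 points, which 7.33% of protein-coding genes with a start peak did in this direction. Over those genes the median difference, GFP+ minus GFP-, was -0.81 points, beside -8.43 for Ebf1, -14.7 for Ebf2, -1.66 for Ebf3 and -5.95 for Ebf4. The sizes of these differences, and at Ebf2 the order, depended on the scale. By area per bp the start peak of Ebf2 ranked 72.0 in GFP- nuclei and 90.6 in GFP+ nuclei. Its areas were 4030 and 1650, and the cause of the turn was not tested. By the -log10 p-value of the summit, Ebf4 ranked 69.8 and 47.2, a difference of -22.6 points. Ebf3 ranked 94.6 and 90.3 by that measure and 82.8 and 70.5 by area per bp (-12.3 points). With the longer list cut to the length of the shorter, the differences at Ebf1 and Ebf4 were -5.38 and -2.98 points.

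Several of these genes have more than one annotated start, and the lists differed in which were open. At Ebf2, the 5′ end of the gene record had a small GFP- peak (rank 17.0, 386 bp) without a GFP+ peak. The larger GFP- peak began beyond the starts 294 and 311 bp further in, but within 250 bp of both. The GFP+ peak was not within 250 bp of either. The start 1352 bp inside the gene was the only one within 250 bp of a GFP+ peak. At Ebf3, a start of a protein-coding transcript 46907 bp inside the gene had a GFP- peak of rank 32.9 and no GFP+ peak. At Ebf1, a pair of starts 799 and 862 bp inside the gene, used by transcripts that are not annotated as protein-coding, had a peak that ranked 51.6 in GFP- nuclei and 53.2 in GFP+ nuclei. The start of Gm37695, annotated on the opposite strand, lay under the same peak as the first start of Ebf1, and that of the lincRNA Gm20675 under the small Ebf2 peak. A peak shared by such starts cannot be divided between them.

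RefSeq promoters (250 bases before to 50 after a start, GRCm38.p6) were given for Ebf1, Ebf3 and Ebf4. Those of Ebf3 and Ebf4 had 46 and 35 CpG pairs in 300 bases and a GC content of 77.0% and 74.3%, and both lay in peaks of both lists. Ebf1 had a pair of RefSeq promoters, of which the one nearest to the gene's 5′ end had a GC content of 36.7% and overlapped no peak in either list. The EBF word was in 0 of these 4 promoters and in 297 of all 32851 RefSeq promoters (0.904%).

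To compare the lists site by site, overlapping peaks were merged, which gave 75 regions at the 4 genes. Of these, 25 had a peak in both lists, 46 in GFP- only and 4 in GFP+ only. With a missing peak set to rank 0, GFP+ minus GFP- ranks had a median of -17.0 points (95% interval of the median by order statistics -25.2 to -10.7), beside -3.90 over all 86649 regions. With the longer list cut by area to the length of the shorter, the medians were -8.83 points at the family and 1.26 points over all 77849 regions. In 36 of 75 regions (48.0%) the rank was lower in GFP+ by more than 20 points, against 23.8% of all regions. In 6 it was higher by more than 20 points (7.63% of all regions), 5 of them at Ebf1. Over the 25 regions with a peak in both lists alone, the median difference was -3.72 points (-10.7 to 1.60), beside -1.80 over all such regions. The difference at the family thus lay in peaks that were absent from the GFP+ list more than in the rank of those present in both.

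**Figure D3:**
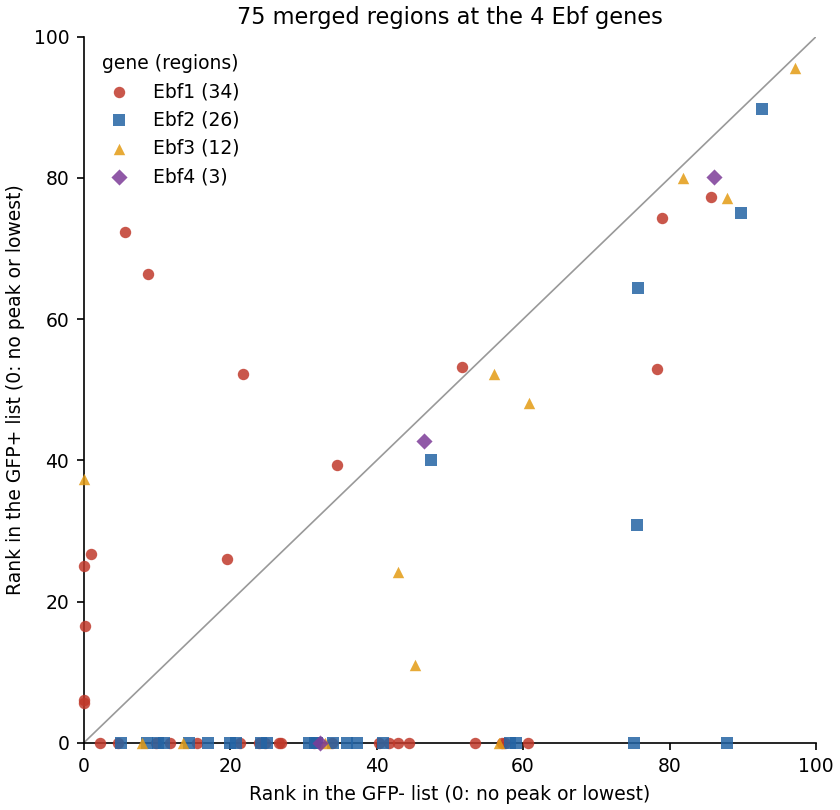
Rank of each of the 75 merged regions at the 4 Ebf genes in the GFP- list (x axis) and the GFP+ list (y axis), by gene, with regions that lack a peak in a list at 0 on that axis and the line of equal rank in grey. All 26 Ebf2 regions lie below the line, 21 of them at 0 for lack of a GFP+ peak, and 11 of the 12 regions above it belong to Ebf1.

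Most Ebf1 regions that ranked higher in GFP+ nuclei lay in the first 100 kb of the gene, but the gene was not cleanly divided along its length. Distances were taken from the 5′ end of the gene, and the bins of 100 kb were chosen after the values were seen. In the first 100 kb, 8 of 13 regions ranked higher in GFP+ nuclei and 5 lower, and 5 GFP- peaks there had no GFP+ counterpart. Between 200 and 300 kb, 8 of 8 ranked lower, 7 of them with no GFP+ peak, beside the 67.9% of all regions that ranked lower. Between 300 and 400 kb, 4 of 6 ranked lower and 2 higher, among them the region with the largest excess in GFP+. The bins from 100 to 200 kb and from 400 to 500 kb held 2 regions each, of which 1 and 2 ranked lower. All 3 regions in the 100 kb before the 5′ end ranked lower. Among the 11 Ebf1 regions with a peak in both lists, 8 ranked higher in GFP+ nuclei (median difference 6.47 points), against 35.4% of all such regions.

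The intron region 358 kb from the 5′ end, whose sequence is given above, ranked 5.65 in GFP- nuclei and 72.3 in GFP+ nuclei, with peak areas of 234 and 1466 beside medians of 747 and 696 over the lists. By the -log10 p-value it ranked 1.59 and 73.0, and by area per bp 13.0 and 85.7. The next, 67.4 kb into the gene, ranked 8.73 and 66.4. Regions at 48.2 kb (21.7 and 52.2), 72.3 kb (1.02 and 26.7) and 68.7 kb (0.106 and 16.5) also ranked higher in the endothelial list. The 3 GFP+ peaks without a GFP- counterpart lay at 84.8 kb (rank 25.1), 90.3 kb (6.06) and 130 kb (5.67). These sites were thus near the lower end of the GFP- list or not in it.

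The GFP- peaks of Ebf1 without a GFP+ counterpart lay mainly further along the gene. The largest was 486 kb from the 5′ end and downstream of the gene, at chr11:45103509-45104022, with a rank of 60.7, inside the annotated lincRNA Gm12159. Within the introns the largest were at 331 kb (57.5), 289 kb (57.1) and 309 kb (53.5), with others at 329 kb (41.7) and 300 kb (40.3). In the midst of them, the region at 280 kb had a peak in both lists, of rank 78.3 in GFP- and 53.0 in GFP+ nuclei. The peak 6.19 kb upstream of the start was also shared, at ranks of 79.0 and 74.4.

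Ranked by area, Ebf2 was lower in GFP+ nuclei at all 5 regions with a peak in both lists (median difference -11.3 points), where 64.6% of all such regions ranked lower. The other 21 of its 26 regions had no GFP+ peak and were lower by the rule that sets a missing peak to rank 0. They add nothing to the 21 peaks counted above. Over all 26 the median difference was -24.6 points (-35.9 to -14.4), mostly by that rule, under which 67.9% of all regions ranked lower. The largest peak, 44.5 kb upstream of the 5′ end, was much alike in both populations, with a rank of 92.6 in GFP- and 89.7 in GFP+ nuclei. A second upstream peak at 21.4 kb ranked 75.7 and 64.4. Inside the gene the lists parted. The intron peak 124 kb from the 5′ end (chr14:67357140-67358694, 1555 bp) ranked 87.9 in GFP- nuclei, where it was number 9541 of 78912 peaks by area, and had no GFP+ counterpart. Other intron peaks without one lay at 8.93 kb (rank 75.2), 65.9 kb (59.1) and 41.4 kb (58.2). The region at 39.2 kb ranked 75.5 in GFP- and 30.9 in GFP+ nuclei, and the one at 60.0 kb ranked 47.4 and 40.1. Beyond 100 kb there were 9 GFP- peaks and no GFP+ peak.

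Ebf3 had the ratio of peak numbers nearest to that of the lists and the smallest difference in start rank by area. Its 7 regions with a peak in both lists all ranked lower in GFP+ nuclei, by a median difference of -10.7 points, where 64.6% of all such regions ranked lower, and 4 had a GFP- peak only. The intron region at 36.1 kb ranked 81.9 and 80.0, and the one at 5.24 kb 87.9 and 77.2. The largest GFP- peak without a GFP+ counterpart was at 13.1 kb (rank 56.7). Near it, at 14.1 kb, was the single GFP+ peak of the gene without a GFP- counterpart (rank 37.3). Upstream of the start, 3 further regions were shared, of which the nearest, at 2.77 kb, ranked 45.2 in GFP- and 11.0 in GFP+ nuclei.

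Ebf4 had few peaks. Besides the start, a region 3.48 kb upstream ranked 46.4 in GFP- and 42.7 in GFP+ nuclei. A short intron peak at 67.7 kb (196 bp, rank 32.2) was in the GFP- list only.

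The EBF word was then searched for on both strands in the 200 bp around every summit. It was in 4 of 71 GFP- windows at the Ebf genes (5.63%, 2.21 to 13.6), against 1.24% of all 78862 GFP- windows searched, and in 0 of 30 GFP+ windows (0%, up to 11.4%), against 0.970% of all GFP+ windows. Of the 4, 3 were in peaks with no GFP+ counterpart, in the introns of Ebf2 at 124 and 163 kb and of Ebf4 at 67.7 kb, and 1 was in the start peak of Ebf4. None was at Ebf1 or Ebf3. In 3 of the 4 windows the 10 bases were the same (TCCCCAGGGA). The sites are given with 10 bases on either side, plus strand of GRCm38, and capitals mark the word.
Ebf2 intron, chr14:67357793-67357822: ttgtgtgtctTCCCGAGGGAgtggtggctt
Ebf2 intron, chr14:67396746-67396775: gaggtccgggTCCCCAGGGAatgggttcat
Ebf4 start, chr2:130295227-130295256: cggctcccgcTCCCCAGGGAgcggcggcgg
Ebf4 intron, chr2:130362862-130362891: cgcctggtagTCCCCAGGGAtgtgtggctc

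The word began 63 bases after the summit in the first of these sites and 27 bases before it in the second. In the second it overlapped a TEAD word. In the Ebf4 start peak it began 59 bases after the GFP- summit. The GFP+ summit lay upstream of the GFP- one, so that its 200 bp window did not reach the word, and with windows of 400 bp 1 of 30 GFP+ windows held it. A match to these letters is a description of the sequence and not of binding. Other words were about as frequent at the Ebf genes as in the GFP- list as a whole. The AP-1 word (TGANTCA, where N is any base) was in 7 of 71 windows (9.86%) against 9.99%, the TEAD word in 9 of 71 (12.7%) against 13.6%, the E-box in 12 of 71 (16.9%) against 22.0%, and the ETS word (CAGGAAGT) in 4 of 71 (5.63%) against 2.89%. The GATA word was in 3 of 71 (4.23%) against 6.36%, the SOX word in 1 of 71 (1.41%) against 2.19%, and the NFI word in 0 of 71 against 0.0621%. The intervals of these 7 words held the share of the list. For the EBF word the lower bound lay above it, also among peaks without a GFP+ counterpart (3 of 46 at the family, 6.52%, 2.24 to 17.5, against 1.99% of all such GFP- peaks), but these bounds rest on 4 and 3 windows. Over whole peaks the word was in 5 of 71 (7.04%, 3.05 to 15.4) against 3.33% of all GFP- peaks, and in windows of 400 bp among peaks without a counterpart in 3 of 46 (2.24 to 17.5) against 2.68%, and both of these intervals held the share of the list.

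Genes tied to EBF factors were compared at their starts, from lists chosen with earlier results of these data known. All 6 genes for partner factors were open at an annotated start in both populations and none differed by more than 20 points. This was the usual state. Of the 13643 protein-coding genes with a start peak in either list, 12802 had one in both. By more than 20 points, 7.33% of them ranked lower and 1.94% higher in GFP+ nuclei. Zfp423, whose zinc-finger protein binds EBF proteins, ranked 97.4 in GFP- and 93.3 in GFP+ nuclei, and its relative Zfp521 96.4 and 95.6. Tcf3, which acts with Ebf1 in B-cell precursors, ranked 97.9 and 98.3, Runx1 94.0 and 90.1, and Foxo1 98.9 and 98.6. Ikzf1, a lymphoid regulator, was lower, at 56.4 and 47.5. The ranks of Runx1 and Ikzf1 belong to starts other than the 5′ end of the gene record. At that end Runx1 had a GFP- peak of rank 4.19 and no GFP+ peak, and Ikzf1 had no peak in either list. Over the whole locus, start included, 11 of 19 GFP- peaks at Zfp423 and 14 of 28 at Zfp521 had no GFP+ counterpart, against the 30.3% of all GFP- peaks. At Runx1 the number was 6 of 11, at Foxo1 1 of 14, at Tcf3 0 of 4 and at Ikzf1 0 of 1. In the other direction, 7 of 15 GFP+ peaks at Zfp423 and 3 of 19 at Zfp521 had no GFP- counterpart, against 13.4% of all GFP+ peaks. That number was 5 of 19 at Foxo1, 1 of 5 at Tcf3, 0 of 5 at Runx1 and 0 of 1 at Ikzf1.

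Most genes of the B lineage had no peak at their start. Of 7 such genes, 5 had no start peak in either list, among them Cd79a and Cd79b, which encode the signalling chains of the B-cell receptor. For comparison, 13643 of all 21755 protein-coding genes had a start peak in either list, and the rest had none. Pax5 ranked 67.8 and 73.4 at a start other than the 5′ end of its gene record, which had no peak in either list. The peak at the start of Vpreb1 (87.1 and 87.7) was nearest to another gene in the GFP- list and is not assigned with certainty. In the adipose group, 5 of 6 genes had start peaks in both lists and none differed by more than 20 points. Over all 21755 protein-coding genes, 12802 had start peaks in both lists. Pparg, the regulator of fat cell formation, ranked 87.1 and 92.3, and Prdm16, a brown fat regulator, 98.9 and 96.5. Ucp1, the uncoupling protein of brown fat, had no start peak in either list.

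Some, but not all, markers of the cell types that the GFP- gate could hold had start peaks in the GFP- list alone, which 4.71% of protein-coding genes with a start peak had. None of the 5 cardiomyocyte markers did, and all 5 had start peaks in both lists, with ranks of 90.2 to 100.0 in GFP- and 86.0 to 100.0 in GFP+ nuclei. Among fibroblast markers, 3 of 6 had a start peak in GFP- nuclei only (Tcf21, Dcn and Dpt) and 2 in both, with start ranks of 0 to 96.5 in GFP- and 0 to 87.0 in GFP+ nuclei. Among pericyte and smooth muscle markers, 3 of 6 were in GFP- only (Pdgfrb, Rgs5 and Notch3) and 3 in both, with ranks of 16.2 to 85.6 and 0 to 76.1. Over the whole locus, Dcn, a matrix proteoglycan of fibroblasts, had 14 GFP- peaks and 1 GFP+ peak, Tcf21 7 and 0, and Lum 3 and 0. The other fibroblast markers had 14 and 5 (Dpt), 17 and 7 (Col1a1) and 8 and 4 (Pdgfra). Pdgfrb, a receptor of mural cells, had 12 and 2, Rgs5 4 and 0, and Kcnj8 6 and 3. Notch3 had 13 and 8, Cspg4 8 and 6, and Myh11 6 and 6. The lists as a whole held 1.21 GFP- peaks per GFP+ peak. Start peaks of B-cell markers were absent from both lists at 2 of 3 genes, as were those of macrophages at 3 of 4, adipocytes at 3 of 4 and Schwann cells at 2 of 3. Such absence is not rare, since 13643 of all 21755 protein-coding genes had a start peak in either list. The part of any cell type in the peaks at the Ebf genes was not tested.

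**Figure D4:**
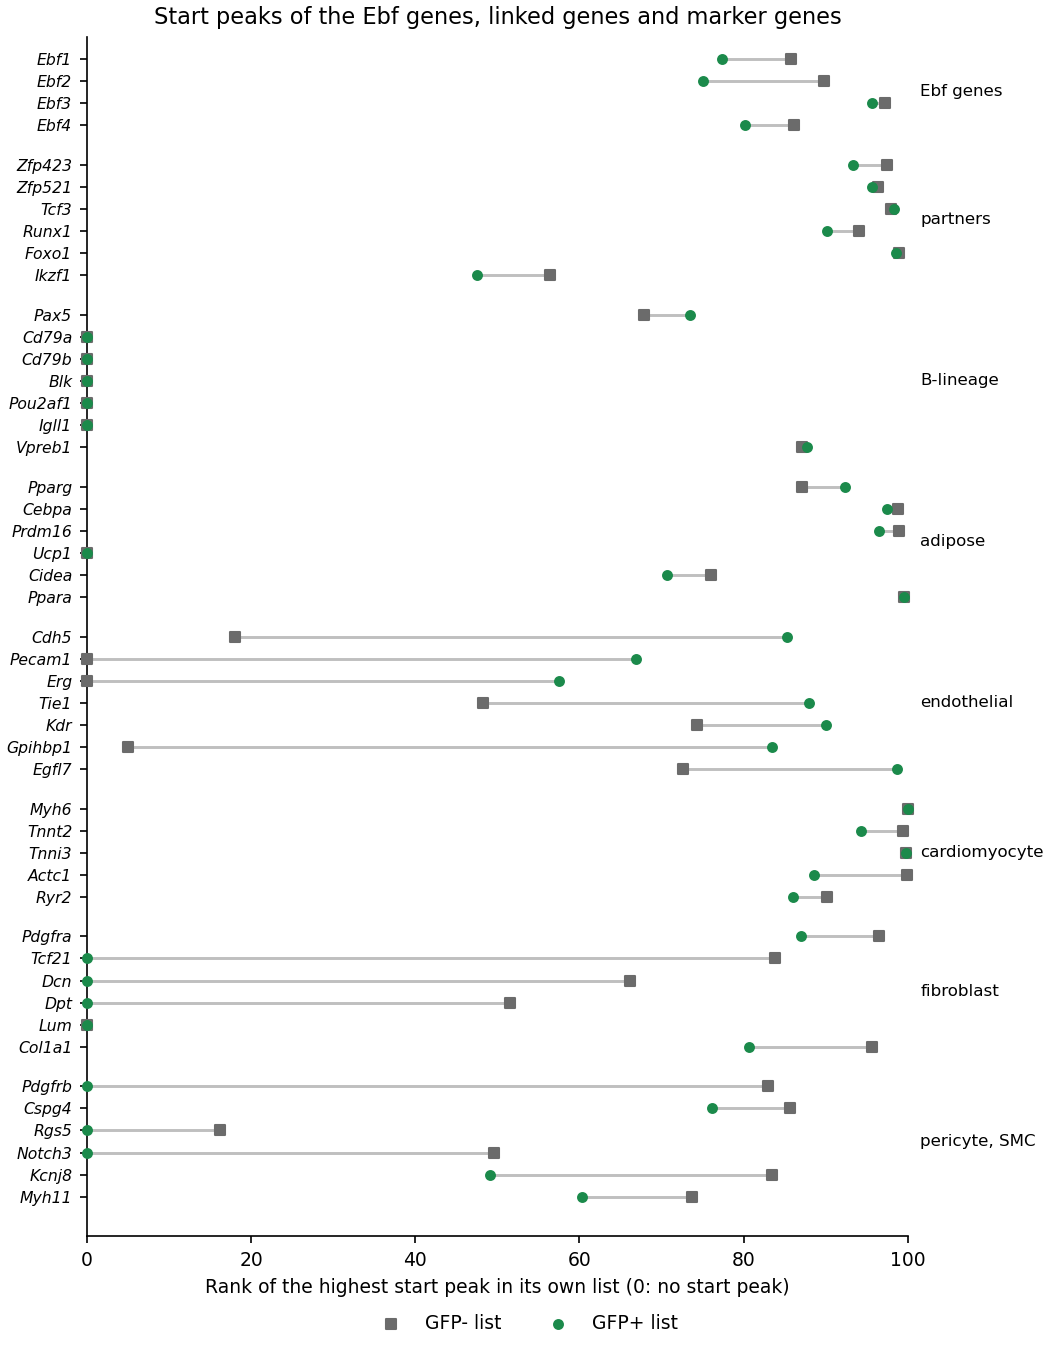
Rank of the highest start peak in the GFP- list (grey squares) and the GFP+ list (green circles) for the 4 Ebf genes, genes linked to EBF factors and marker genes of 4 cell types, with 0 for no start peak (x axis). The Ebf genes lie between 75.0 and 97.2 in both lists, whereas 3 fibroblast markers (Tcf21, Dcn and Dpt) and 3 mural markers (Pdgfrb, Rgs5 and Notch3) are at 0 in GFP+ nuclei.

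The genes next to each Ebf gene were also compared. Rnf145 and Clint1 on either side of Ebf1 had 2 of 4 and 3 of 11 GFP- peaks without a GFP+ counterpart, and Ppp2r2a, 161 kb before Ebf2, had 4 of 10, against the 30.3% of all GFP- peaks. Cdca2, 245 kb beyond Ebf2, had 8 of 10, although its start peak ranked 99.3 in both lists. Mgmt and 9430038I01Rik, beside Ebf3, had 5 of 17 and 1 of 2. Idh3b, beside Ebf4, had 0 of 1, and Cpxm1 on its other side had 2 of 2, and its start peak, of rank 74.1, was in the GFP- list alone.

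By the Euclidean distance over 4 percentile measures (the start rank and the number of peaks in each list, taken over all protein-coding genes), the genes most like Ebf2 were Plxnc1, Sh3rf3 and Dennd2a, with 14, 13 and 13 GFP- peaks and 6, 6 and 5 GFP+ peaks. Those most like Ebf1 were Cgnl1, Prickle2 and Gramd1b. Those most like Ebf3 were Smurf1, Tpcn1 and Ubr2, and those most like Ebf4 were Sms, Rab23 and Maged2. Plxnc1, Sh3rf3 and Dennd2a had 8 of 14, 8 of 13 and 8 of 13 GFP- peaks without a GFP+ counterpart. Ebf2 had 21 of 26, against 30.3% of all GFP- peaks. The genes were chosen by their peak numbers, which limit the number without a counterpart, so these counts are not an independent comparison. The closest genes to Ebf2 were further from it (5.74 to 6.13) than those of the other 3 genes were (0.544 to 3.09).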

How the data were processed

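ATAC-Seq libraries of GFP+ and GFP- heart nuclei (2 each) were analysed from the deposited peak lists. Reads had been trimmed with fastp, mapped to mm10 with Bowtie2 (2.3.5.1 in the submitters' processing notes), filtered with SAMtools (1.19 in those notes), freed of duplicates with Picard and downsampled to a common number, and the authors called peaks with Genrich on both libraries of a population together, without chromosomes M and Y and blacklisted regions. For each peak the deposited lists gave a signal (peak area), a -log10 p-value of the summit, a score limited to 1000, which was not used for ranks, and the summit position. Read counts per library were not analysed here.

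Peaks were ranked by area within their list (Python 3.11.15, pandas 2.3.3, numpy 2.4.6, scipy 1.17.1) and assigned with GENCODE M21 to the nearest protein-coding gene within 100 kb of the summit. Start peaks lay within 250 bp of an annotated transcript start. Words were searched in 200 bp around summits in GRCm38 (pysam 0.24.0), on both strands, on the chromosomes of the reference. A family member's single peaks were named if at a start, among the 3 largest of a list, or the largest without a counterpart; linked genes, marker genes, neighbours and the 3 most similar genes were named from lists. In addition, Ebf1, Ebf2 and Ebf3 regions outside this rule were named after their values were seen. Members and lists were chosen with earlier results of these data known. The overlap, assignment and word steps were tested on simulated data. Protein sequences were not analysed here, and 1 gene of the B-cell lists is not reported here. Figures were drawn with matplotlib 3.10.9.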

Additional observations from a re-analysis of the deposited data

How the results depend on the processing

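No paired analysis was possible because each list was called on both libraries of a population together and carries no value per replicate, and for the same reason no replicate could be left out. The share of GFP- peaks at the Ebf genes without a GFP+ peak stayed within its interval under 10 of 11 alternatives. It was 47.8% (11 of 23 peaks, 29.2 to 67.0) among the peaks above the median area of each list, against 28.3% of all peaks there. The share of GFP+ peaks without a GFP- peak was 26.7% with the longer list cut by area to the length of the shorter, and 33.3% when an overlap of 50% of both peaks was asked, against 26.3% of all GFP+ peaks. The median rank difference over regions was -8.83 points with the longer list cut by area to the length of the shorter, and -3.72 points over regions with a peak in both lists. For the start peaks, the difference at Ebf2 turned from -14.7 to 18.5 points by area per bp. It was -10.9 by the -log10 p-value, -17.0 at the outermost start and -12.5 with the longer list cut. At Ebf1 it was -10.0 by the -log10 p-value, -9.32 by area per bp and -5.38 with the list cut. At Ebf3 the values were -4.37, -12.3 and -1.07, and at Ebf4 -22.6, -5.46 and -2.98. The cause of these shifts was not tested. The share of windows with the EBF word stayed within its interval in all 3 alternatives in both lists. These intervals were wide, and the share over the list changed as well. Over all GFP- peaks it was 1.24% in the main setting, 1.97% with windows of 400 bp, 3.33% over whole peaks and 5.72% with the shorter word TCCCNNGGG. The excess over the list was therefore not shown to be stable. With 1 list per population, no difference here can be set against the spread between animals or libraries.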
